A study of Mus musculus with 2 samples.

Results

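Intercalated cells are the acid-base cells of the collecting system of the kidney, and 10 genes of their transport machinery were followed here through every nephron segment. The genes were given by name, without use of measured values: 5 subunits of the proton pump (Atp6v1g3, Atp6v1b1, Atp6v1c2, Atp6v0d2 and Atp6v0a4), 3 anion exchangers (Slc4a1, Slc26a4 and Slc4a9), the carbonic anhydrase Car2 and the ammonia channel Rhcg. All 10 were found among the 32285 genes listed in both libraries.

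Type A intercalated cells secrete acid. Carbonic anhydrase II turns carbon dioxide and water into a proton and bicarbonate, and the vacuolar-type proton pump (V-ATPase) moves the proton into the urine. The anion exchanger AE1, made from Slc4a1, returns bicarbonate to the blood. Type B intercalated cells secrete bicarbonate and take up chloride through pendrin, made from Slc26a4, with the exchanger AE4, made from Slc4a9, on the opposite face. The transcription factor Foxi1 is required for both types, and principal cells, which take up sodium and water, lie between them.

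Mouse kidneys were collected on day 14 after ischaemia and reperfusion of 1 kidney by clamping of its artery, and all animals had 4 tamoxifen injections after the injury. The control library came from mice without Cre, and whether they carried the floxed allele is not stated. The haplodeficient library came from Cdh5-CreERT2; Phd3f/+ mice, in which a tamoxifen-dependent Cre driven by the promoter of the endothelial cadherin gene Cdh5 can remove 1 copy of Phd3, a gene for an oxygen-dependent prolyl hydroxylase; Cdh5 is not a gene of tubule cells. Each group was 1 library of dissociated kidney cells, both are labelled batch 1, and the number of animals per library is not stated, so the differences between the libraries have no replicate check, no test between groups was possible, and every interval is a 95% interval for counting error only.

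The control library gave 8737 cells and the haplodeficient library 9222, with medians of 8762 and 5472 unique molecular identifiers (UMIs) per cell and 10.2% and 2.69% mitochondrial UMIs. The libraries shared 23 cell barcodes among kept cells, 3 of them in intercalated-like cells. Levels are CPM, the standard counts-per-total scale, from the summed UMIs of a cell class. Each log2 ratio divides the haplodeficient by the control level, with 5 CPM added to both. A difference met the size rule when the log2 ratio was at least 1 in either direction and the exact Poisson intervals did not overlap.

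The cells were clustered without the 10 genes and named from other markers. A single cluster carried the intercalated markers, among them Foxi1, Hepacam2 and Rhbg, and it split into 3 kinds of cell. Type A-like cells (131 control and 99 haplodeficient) had Kit, Aqp6, Adgrf5 and Dmrt2. Type B-like cells (51 and 16) had Hmx2, Insrr and Tldc2, although their leading gene was Umod, a gene of the thick ascending limb. The type marker Slc26a7 was nearly absent (11 and 3 UMIs in type A-like cells), and Oxgr1, listed for type B, was at 227 CPM in type A-like and 149 CPM in type B-like control cells. The remaining cells (269 and 212) carried intercalated and principal cell genes together. They were deeper, with medians of 26598 and 34527 UMIs against 9550 and 10117 in type A-like cells, and their median doublet scores were 0.0481 and 0.0489 against 0.0267 and 0.0277. They were left unnamed and are described apart, and doublets among them were not tested further. Type A-like and type B-like cells together are called intercalated-like.

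Intercalated-like cells were 2.08% (1.79 to 2.40) of the cells of the control library and 1.25% (1.03 to 1.49) of those of the haplodeficient library. Type A-like cells were 72.0% (64.9 to 78.37) of the 182 intercalated-like cells of the control library and 86.1% (78.39 to 91.8) of the 115 of the haplodeficient library, with intervals that all but touch. Proximal-like cells were 35.2% of control and 4.15% of haplodeficient cells. A lower share of 1 class by itself raises the shares of the others, so shares of all cells depend on that class. When cells were named alone from their own markers, the intercalated share was 3.81% and 3.89%, which removed its difference.

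The promoter stretches below show where 2 pump genes hold a forkhead core, a stretch of DNA that forkhead proteins such as Foxi1 bind. They are shown because Foxi1 had the most similar pattern over cell classes to Atp6v1g3 and, more closely, to Atp6v1c2, whose promoter held no core. Foxi1 was itself a marker that named the intercalated cluster, so that likeness can be partly set by the naming. RefSeq promoters on GRCm38.p6 were matched for 6 of the 10 genes, and Atp6v0d2, Slc4a1, Slc4a9 and Car2 had no entry. The stretches run from 130 to 51 bases before the annotated start, 5′ to 3′ on the plus strand, with the core in capitals. The Atp6v1b1 stretch is chr6:83742887-83742966 and holds TGTTTAC, which begins 98 bases before the start. The Atp6v1g3 stretch is chr1:138273608-138273687 and holds TGTTTGT on the minus strand, so that its complement is shown.
Atp6v1b1: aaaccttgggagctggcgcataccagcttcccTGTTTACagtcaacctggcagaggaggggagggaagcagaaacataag
Atp6v1g3: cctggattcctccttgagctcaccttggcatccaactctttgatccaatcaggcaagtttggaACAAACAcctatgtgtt

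Forkhead cores were searched on both strands of the 250 bases before the start of 32851 promoters. The core TGTTTAC was found in 1 of the 6 member promoters and in 3.17% of all promoters. For TGTTTGT the share was again 1 of 6, beside 5.84% of all promoters. A last form, TGTTTGC, was in none of the 6 and in 4.30% of all promoters. Any of these 3 cores was in 2 of 6 and in 12.4% of all promoters. A pair of half-sites of Tfcp2l1, another transcription factor of intercalated cells, was in 3 of 6, the promoters of Atp6v1g3, Atp6v0a4 and Rhcg, and in 24.9% of all promoters. A match describes letters in this window and not a site of binding.

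Where the genes were found differed among the 10. Of the UMIs of Slc4a1 in all cells of both libraries, 97.0% lay in the intercalated cluster, and the share was 95.9% for Atp6v1g3, 95.8% for Slc26a4 and 93.3% for Atp6v1c2. Few UMIs of these 4 genes lay elsewhere. Slc4a9 had 83.9% of its control and 72.4% of its haplodeficient UMIs in the cluster, with 22.1% of the latter in thick ascending limb-like cells. Atp6v0d2 had 70.3% and 51.9%, Rhcg 53.1% and 53.5%, and Atp6v1b1 49.9% and 48.1%. Car2 had 22.1% and 31.98%, and Atp6v0a4 19.3% and 29.3%, so that most UMIs of these 2 genes were in other cells. The libraries also differ in their cells, above all in the proximal-like share. The intercalated-like cells alone held 16.8% of the members' UMIs, and the deeper unnamed cells 36.7%.

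**Figure D1:**
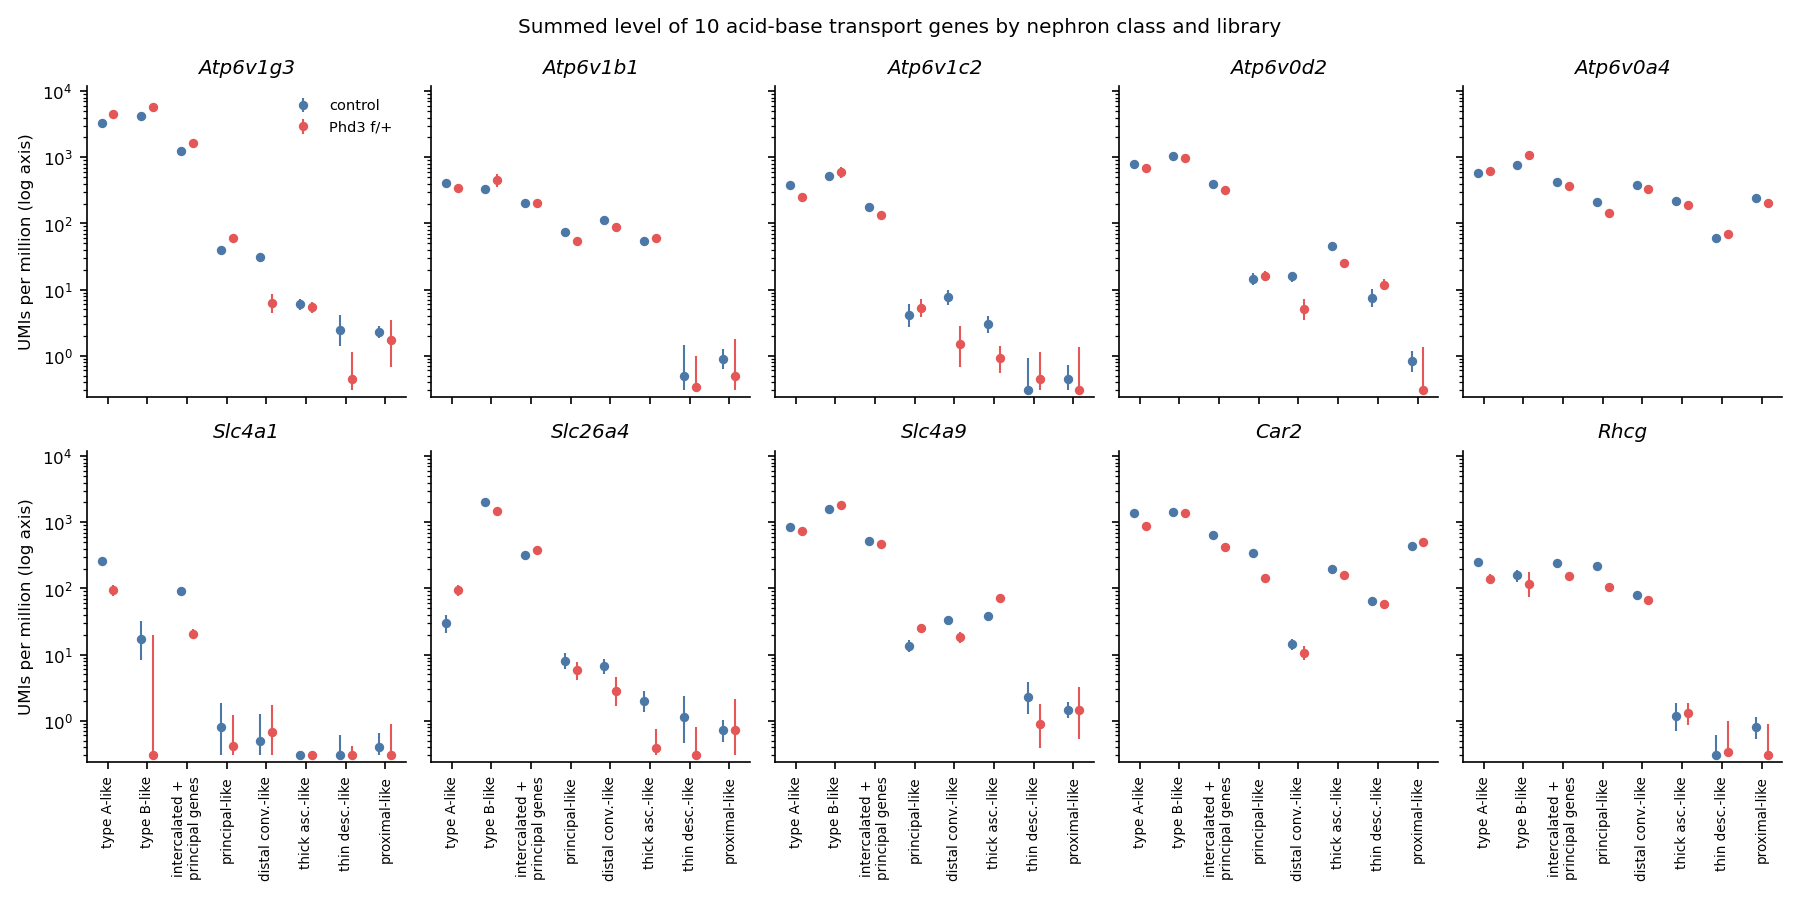
Level of each of the 10 genes (CPM, log axis) in 8 nephron classes of the control (blue) and haplodeficient (red) library, with exact Poisson 95% intervals; values under 0.3 are drawn at 0.3. Atp6v1g3, Atp6v1c2, Slc4a1 and Slc26a4 drop steeply outside the 3 intercalated groups, while Atp6v0a4 and Car2 stay high in other segments.

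Atp6v1g3, the kidney form of the G subunit in the stalk of the pump, stood at 3611 CPM (3528 to 3696) in control and 4722 CPM (4604 to 4842) in haplodeficient intercalated-like cells. The gene lies on chromosome 1 (138273738 to 138289462, GRCm38). It was the only subunit of the 5 with intervals apart in the upward direction, at a log2 ratio of 0.39, below the size rule. When each cell was named alone that value was -0.09. The next segment was the principal-like class, with 39.96 and 59.6 CPM. Its broadly expressed relative Atp6v1g1 showed no such restriction, at 228 and 339 CPM in intercalated-like and 481 and 559 CPM in proximal-like cells.

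Atp6v1b1, the kidney form of the B subunit in the head of the pump (chromosome 6, 83742990 to 83758855), was at 387 CPM (361 to 416) in control and 364 CPM (331 to 398) in haplodeficient intercalated-like cells, with overlapping intervals. It was also present in distal convoluted-like cells (113 and 89.0 CPM), principal-like cells (74.2 and 54.9 CPM) and thick ascending limb-like cells (54.9 and 60.03 CPM). It was nearly absent from proximal-like cells (0.90 and 0.49 CPM), where its relative Atp6v1b2 had 203 and 273 CPM. Intercalated-like cells thus carried both B subunit genes, with Atp6v1b2 at 140 and 128 CPM, and proximal-like cells mainly the relative.

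Atp6v1c2, a form of the C subunit that helps to join the head and the membrane part (chromosome 12, 17284721 to 17329359), was at 424 CPM (396 to 454) and 299 CPM (270 to 331), a log2 ratio of -0.50. Outside the intercalated cluster it did not pass 7.65 CPM in any segment. Its relative Atp6v1c1 had 72.1 and 73.0 CPM in intercalated-like cells.

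In the membrane part, the d subunit gene Atp6v0d2 (chromosome 4, 19876841 to 19922605) was at 875 CPM (834 to 917) and 727 CPM (681 to 775), and the a subunit gene Atp6v0a4 (chromosome 6, 38048483 to 38124586) at 634 CPM (600 to 670) and 683 CPM (639 to 730). Atp6v0d2 had a second home outside the nephron, at 178 CPM (166 to 190) and 230 CPM (220 to 239) in macrophage-like cells. Atp6v0a4 was widespread in tubule cells, at 382 and 333 CPM in distal convoluted-like, 246 and 206 CPM in proximal-like and 222 and 193 CPM in thick ascending limb-like cells. Their relatives Atp6v0d1 and Atp6v0a1 had 108 and 80.8 CPM and 41.9 and 42.0 CPM in intercalated-like cells.

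None of the 5 pump subunits met the size rule in intercalated-like cells. Of the 17 other V-ATPase genes, 14 were high enough to be compared, and none met the rule. For that the 2 libraries had to average 50 CPM or more and hold 30 UMIs or more between them. Their log2 ratios ran from -0.48 to 0.61 with a median of 0.08, and 9 were above 0. The median of all 3692 compared genes was 0.03.

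Slc4a1 was higher in type A-like than in type B-like cells taken as a whole, though not in every part of the type A-like cells, as given below. It was at 264 CPM (238 to 292, 372 UMIs) in type A-like and 17.5 CPM (8.38 to 32.1, 10 UMIs in 2 cells) in type B-like control cells, a ratio of 15.1 (8.11 to 31.7). In the haplodeficient library it was at 94.6 CPM (77.3 to 115, 104 UMIs) in type A-like cells. In type B-like cells it had 0 UMIs there, with an exact upper limit of 19.6 CPM. The type A-like level was 5.93 times a floor of 3 counts in type B-like cells (15.97 CPM), a value that leaves out the counting error of that level. The gene lies on chromosome 11 (102348824 to 102366203, minus strand) and also encodes the band 3 protein of red cells. Among erythroid markers, however, Hba-a2, Hbb-bt and Alas2 were at 0 in the intercalated-like cells of both libraries. Hbb-bs had 1 UMI in each, and Hba-a1 had 1 in the haplodeficient library.

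Slc26a4 marked type B-like cells. It was at 2003 CPM (1889 to 2123) in type B-like and 29.8 CPM (21.5 to 40.3) in type A-like control cells, a ratio of 67.3 (49.4 to 93.8). In the haplodeficient library the levels were 1480 CPM (1311 to 1664) and 93.7 CPM (76.5 to 114), a ratio of 15.8 (12.5 to 19.99). The gene lies on chromosome 12 (31519827 to 31559969, minus strand). Neither exchanger took part in the clustering or the naming of the types.

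Slc4a9 was present in both types and higher in type B-like cells, at 1619 against 837 CPM in control (ratio 1.93, 1.77 to 2.11) and 1825 against 736 CPM in haplodeficient cells (2.48, 2.18 to 2.82). It also appeared in thick ascending limb-like cells at 38.9 CPM (36.0 to 42.1) in control and 71.4 CPM (67.9 to 75.2) in haplodeficient cells. The intervals were apart and the log2 ratio was 0.80, below the size rule.

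Car2 (chromosome 3, 14886273 to 14900770) was at similar levels in the types of the control library, with 1376 CPM in type A-like and 1453 CPM in type B-like cells (ratio 0.95, 0.87 to 1.03). In the haplodeficient library it was lower in type A-like cells, with 887 against 1405 CPM (0.63, 0.55 to 0.73). Rhcg (chromosome 7, 79593363 to 79617657) was higher in type A-like control cells, with 252 against 157 CPM (1.60, 1.27 to 2.04), and in the haplodeficient library the ratio of 1.20 had an interval that includes equality (0.77 to 1.98). Foxi1, at 491 and 516 CPM in the control types, did not separate them.

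At equal depth, single cells seldom carried both Slc4a1 and Slc26a4. Each cell was thinned to 3000 UMIs, which left out 8 control and 7 haplodeficient type A-like cells as too shallow. Slc4a1 was then seen in 35.0% (26.6 to 44.1) of the 123 type A-like cells left in the control library and in 18.5% (11.1 to 27.9) of the 92 left in the haplodeficient library. Before thinning the shares were 49.6% and 27.3%. In thick ascending limb-like cells, with medians of 11019 and 9423 UMIs, it was seen in none of 904 and 1013 thinned cells. The share of type B-like cells with Slc26a4 was 77.3% (62.2 to 88.5) among 44 thinned control cells, and 86.7% (59.5 to 98.3) among 15 from the haplodeficient library. Both genes were seen together in 1 of 123 and 0 of 92 type A-like cells, where a floor of 3 counts is 3.26%. Slc26a4 was seen in 5.69% and 6.52% of these thinned cells, so few with both are to be met even if the genes are independent. Whether the cells with both were fewer than that was not tested. In the deeper unnamed cells they were seen together in 7 of 261 and 4 of 209. Before thinning, 35 of 269 and 29 of 212 of the deeper cells had both, beside 2 of 131 and 0 of 99 type A-like cells.

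**Figure D2:**
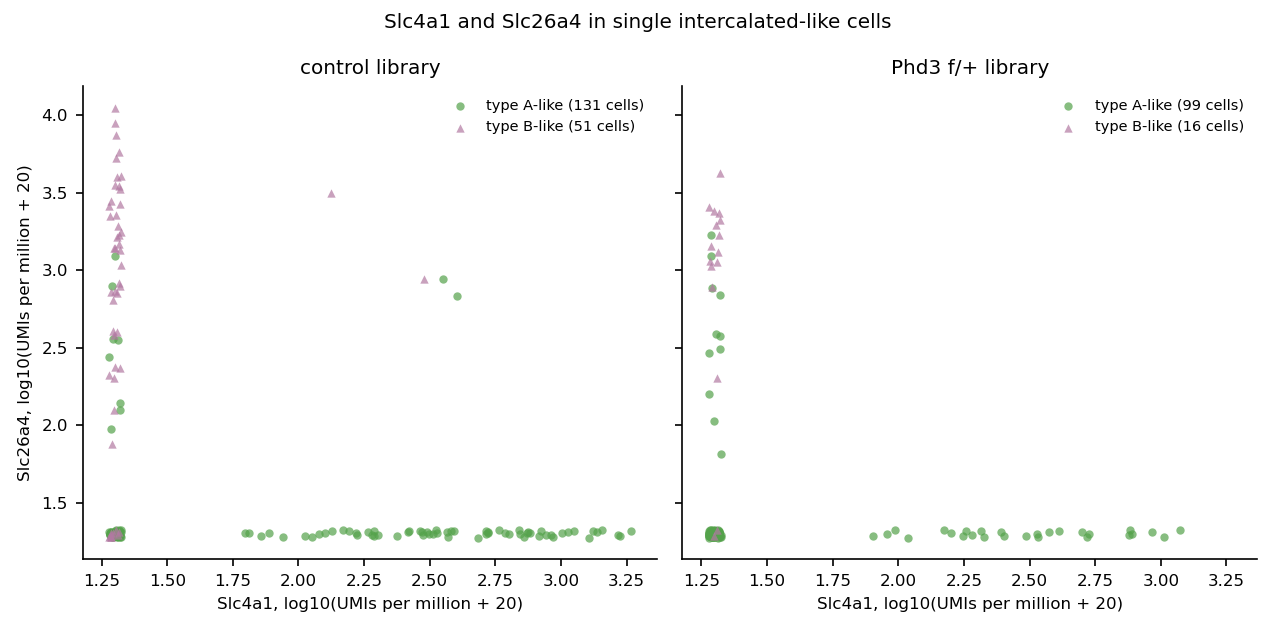
Slc4a1 (x axis) against Slc26a4 (y axis) in each intercalated-like cell, as log10 of CPM plus 20, with a random shift of up to 0.025 to part the points; circles are type A-like and triangles type B-like cells. Points lie along the axes, with 4 control cells (2 of each type) and no haplodeficient cell carrying both genes.

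Between the libraries, Slc4a1 and Slc26a4 differed most among the members in intercalated-like cells. Slc4a1 was at 193 CPM (174 to 213) in control and 80.8 CPM (66.0 to 97.9) in haplodeficient cells, a ratio of 0.42 (0.33 to 0.52) and a log2 ratio of -1.20. Slc26a4 was at 599 CPM (566 to 634) and 296 CPM (267 to 327), a log2 ratio of -1.01. These 2 of the 10 members met the size rule, both in the lower direction, where 2.06% of 3692 genes met it in either direction. Under other processing settings 0 to 2 of the 10 members met it. The members' median was -0.38, with 8 of 10 below 0, beside 0.03 for all genes. Rhcg (-0.69), Car2 (-0.54), Atp6v1c2 (-0.50), Atp6v0d2 (-0.27), Slc4a9 (-0.25) and Atp6v1b1 (-0.09) were the others below 0.

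Type B-like cells, which carry most Slc26a4, were 28.0% of control and 13.9% of haplodeficient intercalated-like cells. The part of that share in the Slc26a4 difference was not tested. Within type B-like cells, of which the haplodeficient library had 16, the log2 ratio was -0.44 and without the 5 cells of each library with most Slc26a4 UMIs it was -0.11. None of the 9 members compared in type B-like cells met the size rule, where 4.49% of 3478 genes did. Their median was 0.17, with 5 above 0, among them Atp6v0a4 (762 and 1070 CPM, 0.49), Atp6v1g3 (4274 and 5753 CPM, 0.43) and Atp6v1b1 (337 and 452 CPM, 0.42). Hmx2, a transcription factor gene of type B cells and here a naming marker, was also lower over all intercalated-like cells, at 95.9 and 37.3 CPM (log2 ratio -1.25), and was the only one of 9 regulator genes on the list that met the rule.

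Within type A-like cells Slc4a1 had a ratio of 0.36 (0.29 to 0.45) and a log2 ratio of -1.43. At the minimum depth set for each library alone it was -0.56, and at a minimum of 1000 UMIs -0.99, both short of the size rule. Slc26a4 went the opposite way there, from 29.8 to 93.7 CPM (log2 ratio 1.505). These 2 of 10 members met the size rule, where 2.14% of 3743 genes did. The Slc26a4 value rested on few cells: 34 of 42 control UMIs and 91 of 103 haplodeficient UMIs came from 5 cells each. Without those cells it was 5.91 and 12.2 CPM, and the rule was no longer met. The sign changed under 4 other settings, to between -1.76 and -0.046, 3 of which set no type B-like cells apart from type A-like ones.

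The Slc4a1 UMIs were spread more widely, with 95 of 372 control and 52 of 104 haplodeficient UMIs in the 5 highest cells. Without them the log2 ratio was -1.92. In the deeper unnamed cells Slc4a1 was at 90.3 CPM (83.8 to 97.1) and 20.6 CPM (17.6 to 24.03), a log2 ratio of -1.89, and it was the only 1 of 10 members that met the size rule there, where 1.22% of 3946 genes did. With these cells pooled, Atp6v1g3 (1241 and 1644 CPM, 0.40) and Slc26a4 (315 and 384 CPM, 0.28) were higher, and Rhcg (-0.66) and Car2 (-0.59) lower. These cells formed 3 subclusters of unequal make-up, with 77 and 138, 120 and 69, and 72 and 5 cells. Slc4a1 was at 31.3 and 17.0 CPM in the first, 51.3 and 22.3 CPM in the next and 209 and 103 CPM in the last. The log2 ratios of Slc4a1 within them were -0.72, -1.05 and -0.99, all smaller in size than the pooled value. The pooled values of other members did not hold in each: Car2 was at 0.09, -0.49 and 0.48, and Rhcg at -0.16, -0.30 and -0.14. Atp6v1g3 was at 0.45, 0.47 and -0.46. Slc26a4 was at 2.18 in the first and 0.09 in the next, and the 5 haplodeficient cells of the last held 0 UMIs of it. Expected free-RNA levels of Slc4a1 in type A-like cells were 0.20 and 0.07 CPM, far below the levels seen.

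Other genes of type A-like cells showed smaller values in the same direction. Rhcg was at 252 CPM (226.2 to 279.4) and 141 CPM (120 to 165), a log2 ratio of -0.81. Car2 was at -0.63, Atp6v1c2 at -0.62, Atp6v0d2 at -0.23, Atp6v1b1 at -0.22 and Slc4a9 at -0.18. Atp6v1g3 was higher, at 3342 CPM (3248 to 3439) and 4546 CPM (4421 to 4674), a log2 ratio of 0.44, and Atp6v0a4 was at 0.08. Foxi1 was at 491 and 400 CPM. The type A markers went both ways, with Kit at 450 and 466 CPM, Dmrt2 at 172 and 242 CPM, Adgrf5 at 948 and 843 CPM and Aqp6 at 744 and 392 CPM.

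**Figure D3:**
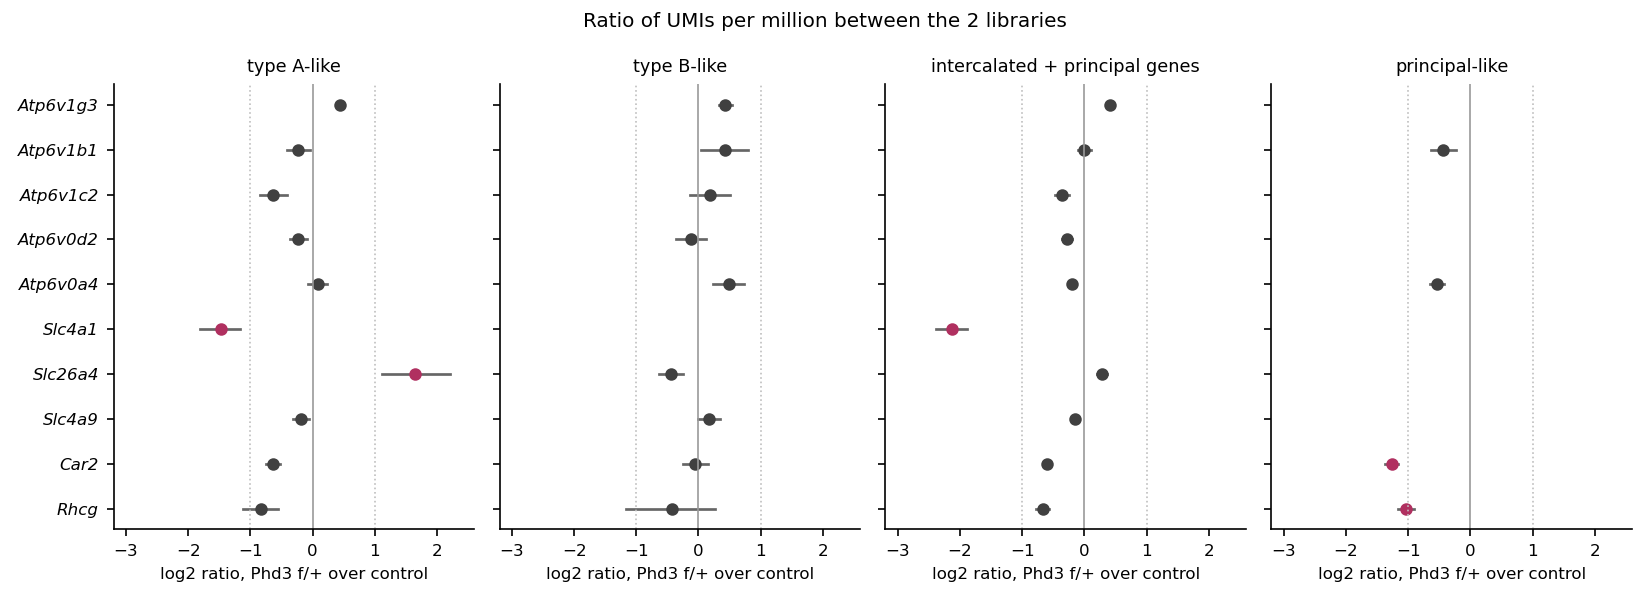
Log2 ratio of CPM with nothing added, haplodeficient (marked Phd3 f/+) over control, for each member compared in 4 classes, with exact conditional 95% intervals for counting error; dark red points met the size rule and dotted lines mark 1 in either direction. Slc4a1 lies to the left in type A-like and in the deeper cells, Car2 and Rhcg in principal-like cells.

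Type A-like cells were not uniform, and the libraries differed in their make-up. At a finer resolution most fell into 4 subclusters, here numbered I to IV, each with 40 or more of these cells. Subcluster I held 39.7% of control and 4.0% of haplodeficient type A-like cells (52 and 4 cells), II held 23.7% and 23.2% (31 and 23), III held 16.8% and 20.2% (22 and 20), and IV held 16.8% and 48.5% (22 and 48). A subcluster with cells of mainly 1 library may be that library and not a kind of cell. Leading genes were Mmp7 and Kap in I, Ckb in II, Slc12a1 of the thick ascending limb in III and Ccl5 in IV. All 89 Ccl5 UMIs in IV came from 1 haplodeficient cell, so Ccl5 did not mark that subcluster. On its own III did not meet the naming rule for type A, with Kit as its 1 type A marker beside 3 principal cell markers.

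Slc4a1 differed among these subclusters. Over both libraries it was at 289 CPM in I, 470 CPM in II, 92.8 CPM in III and 23.0 CPM in IV. In II it was at 515 CPM (423 to 621) in control and 410 CPM (317 to 522) in haplodeficient cells, and in III at 93.8 and 92.0 CPM, with overlapping intervals in both. In IV it was at 56.6 CPM (10 UMIs) and 11.6 CPM (6 UMIs), a ratio of 0.20 with an interval of 0.06 to 0.62. It was seen in 5 of 22 and 4 of 48 cells of IV, so it did not mark that subcluster. Slc26a4 was at 50.9 CPM (9 UMIs in 2 cells) and 137 CPM (71 UMIs in 6 cells) in IV. In I the 4 haplodeficient cells held 1 UMI of Slc4a1.

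Rhcg and Car2 followed a similar order, with 323 and 2209 CPM in II and 92.2 and 683 CPM in IV, both libraries together. Atp6v1g3 did not: it was highest in IV, at 5218 CPM, against 4381 CPM in II. With the 4 subclusters weighted equally in both libraries, an alternative chosen after the data were seen, the log2 ratio of Slc4a1 in type A-like cells was -0.87, of Rhcg -0.57, of Car2 -0.31 and of Atp6v1g3 0.29. In that value I has the same weight as the others, although its haplodeficient level is 1 UMI in 4 cells. Over II, III and IV, which had at least 20 cells in each library, equal weights gave 222 and 171 CPM of Slc4a1, a log2 ratio of -0.36, with Rhcg at -0.38, Car2 at -0.25 and Atp6v1g3 at 0.22. Both of these Slc4a1 values were short of the size rule.

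**Figure D4:**
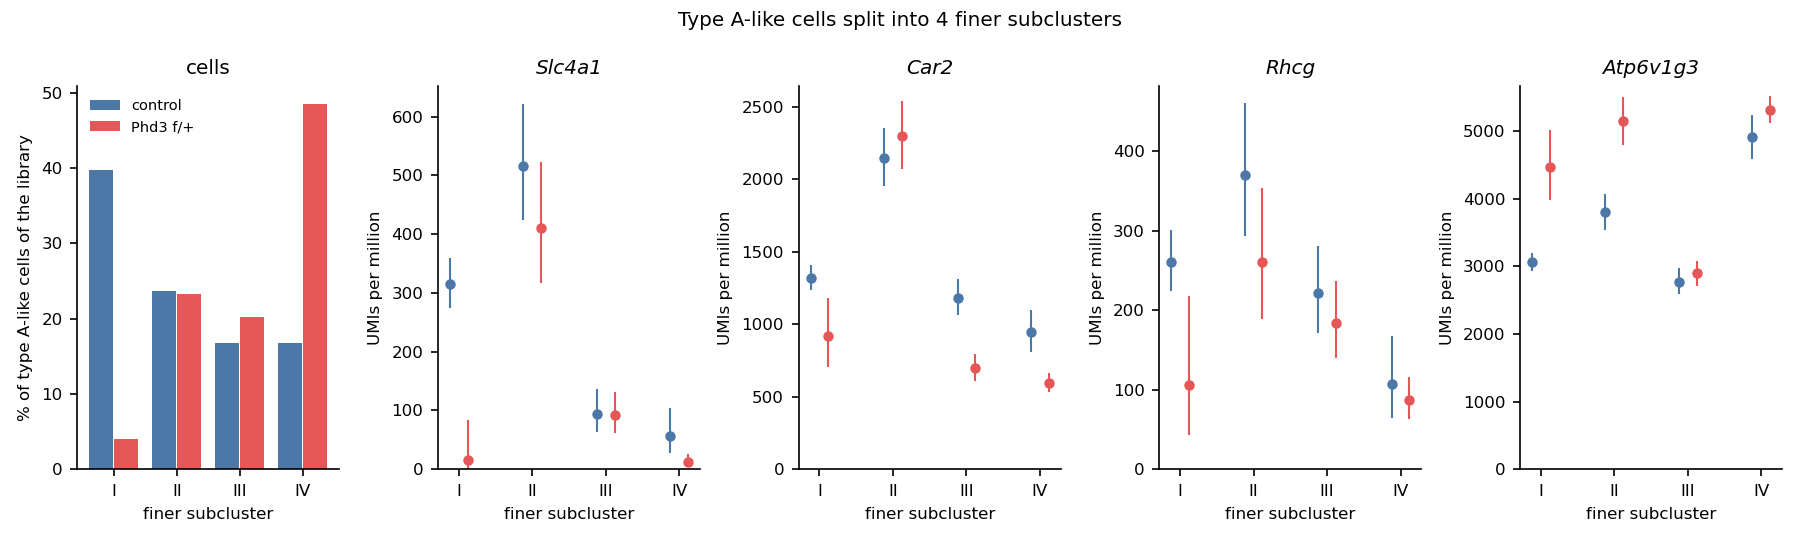
Share of type A-like cells in each of 4 finer subclusters (left, bars from 0) and level of Slc4a1, Car2, Rhcg and Atp6v1g3 there (CPM, exact Poisson 95% intervals) in control (blue) and haplodeficient (red) cells. Control cells are most frequent in I and haplodeficient cells in IV, where Slc4a1 and Rhcg are low and Atp6v1g3 is high.

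Several other values moved with the libraries in the same cells. Median mitochondrial shares in type A-like cells were 10.1% and 5.96% at similar depth. The 14 proximal tubule markers summed to 379 and 14.8 CPM in intercalated-like cells, most of it from Kap (233 and 2.33 CPM). The 10 principal cell markers summed to 821 and 728 CPM. Among them Aqp2 was at 64.6 and 12.4 CPM, while Fxyd4 (126 and 170 CPM) and Npnt (133 and 157 CPM) went the other way. Plac8, on the monocyte list, was at 374 and 1030 CPM. The rest of that list was nearly absent: Ly6c2 and Chil3 had 0 UMIs in both libraries, Ccr2 had 0 and 1, and Vcan 5 and 0. The 7 macrophage markers summed to 4.54 and 26.4 CPM. Their part in the differences of the members was not tested. The 7 intercalated markers that are no members summed to 2911 and 3006 CPM, with single log2 ratios from -0.72 to 0.29, 5 of 7 below 0, and from -0.83 to 0.84 in type A-like cells.

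Outside intercalated cells, Car2 and Rhcg differed in principal-like cells, a single cluster of 517 control and 637 haplodeficient cells. Car2 was at 341 CPM (326 to 355) in control and 142 CPM (133 to 151) in haplodeficient cells, a log2 ratio of -1.23. Rhcg was at 216 CPM (205 to 228) and 105 CPM (97.9 to 113), a log2 ratio of -1.01. These 2 of the 4 members compared met the size rule, both lower, where 2.19% of 3736 genes met it. At a clustering resolution of 2 Rhcg was at -0.70, and with each cell named alone at -0.91, while Car2 missed the rule under 1 setting, at -0.83. Atp6v0a4 (-0.52) and Atp6v1b1 (-0.40) were also lower. Rhcg met the size rule in no other class. Its ratio in type B-like cells was 0.74, with an interval from 0.44 to 1.20 that includes equality. Median depth was 8359 and 7582 UMIs and the mitochondrial share 10.2% and 6.01%, whose part was not tested.

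In the other segments no member met the size rule. In distal convoluted-like cells 3 members were compared (Atp6v1b1 -0.33, Atp6v0a4 -0.20, Rhcg -0.27), and 1.72% of 3496 genes met the rule. In thick ascending limb-like cells 4 were compared, and 1.2% of 3588 genes met it. In descending thin limb-like cells the 2 compared were Atp6v0a4 (0.19) and Car2 (-0.12), beside 1.66% of 3799 genes, and in proximal-like cells the same 2 genes (-0.25 and 0.18), beside 3.22% of 2984 genes. Car2 was thus lower in principal-like and intercalated-like cells. In proximal-like cells Car2 was at 438 and 497 CPM, and its log2 ratio of 0.18 was near the median of 0.20 of all genes compared there. The haplodeficient library had 383 proximal-like cells against 3077 in control.

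The genes most like the members over 16 cell classes in both libraries (32 sums) were as follows. The closest to Atp6v1g3 were Foxi1 (r = 0.97), Syn2 (0.96) and Asb15 (0.95). Slc4a1 was closest to Gm12121 (0.98), the type A marker Aqp6 (0.96) and Asb15 (0.96), and Slc26a4 to the type B marker Hmx2 (0.89), Foxi1 (0.89) and Col24a1 (0.88). Foxi1, Aqp6 and Hmx2 were also among the markers that named the classes, so their likeness can be partly set by the naming. These are correlations over sums that share libraries, given as a description.

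Among the 20 other acid-base and chloride transport genes, 7 were compared in intercalated-like cells and none met the size rule. Their log2 ratios ran from -0.31 to 0.07, with 5 below 0. Rhbg, the ammonia channel related to Rhcg, was at 285 and 254 CPM (-0.16), higher in type A-like than type B-like control cells (346 and 135 CPM). Slc4a2, related to Slc4a1 and found in most tubule cells, was at 36.3 and 38.1 CPM, too low to be compared by the rule. Of the 9 regulators, 7 were compared, and Foxi1 was at 498 and 401 CPM (-0.31).

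**Figure D5:**
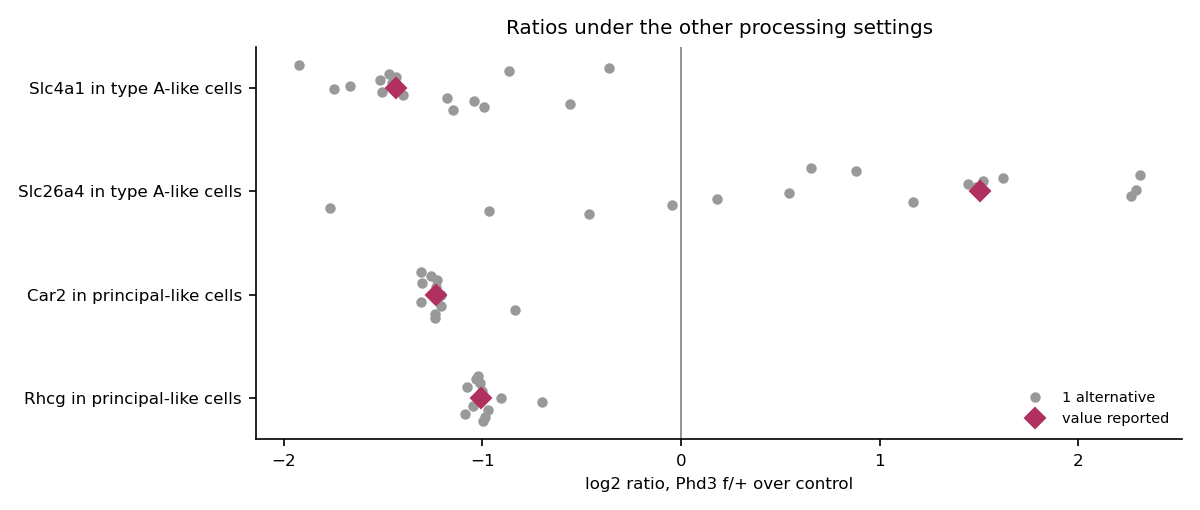
Log2 ratio, haplodeficient over control, of 4 values as reported (diamond) and under each other processing setting (grey points; x axis, log2). Slc4a1 in type A-like cells stays below 0 under all settings plotted, between -1.92 and -0.36, and Slc26a4 in type A-like cells lies on both sides of 0, between -1.76 and 2.31.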

How the data were processed

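The authors deposited raw UMI counts for every barcode, unfiltered and not normalised, from Cell Ranger 4 per the file headers and on mm10 per the submitters' processing notes. The protocols mention cell hashing, but no hashtag counts were used here. Barcodes needed 500 UMIs, 200 genes and at most 50% mitochondrial UMIs (9452 control and 10026 haplodeficient). The highest Scrublet scores (scanpy 1.11.5) at 0.8% per 1000 cells were removed (715 and 804). Both libraries were clustered together on 2000 variable genes without the 10 members (30 components, 15 neighbours, leidenalg 0.10.2, resolution 1), and the intercalated cluster again at resolution 0.5. Names needed 3 markers seen in 10% of cells at 2-fold, and a subcluster with at least 60% of the principal cell markers stayed unnamed. The rules for naming were chosen with the data in view, and names may differ from the study's. UMIs were summed per class and library; 1 library per group allowed no test. Intervals are exact (Poisson for levels, Clopper-Pearson for shares, conditional binomial for ratios) and, like floors of 3 counts, cover counting error only. Free RNA was profiled in barcodes of at most 100 UMIs. All 10 members are named; genes of other lists are named where they met the size rule or are relatives of members, or Foxi1. Marker and other genes named beside results were chosen after their values were seen. The members and lists were chosen with earlier results of these data known. The calculation of ratios and the clustering were tested on simulated data. Other settings tried are in the closing section. Gene positions are from GENCODE M21 (GRCm38). A marker of the erythroid list is not reported here.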

Additional observations from a re-analysis of the deposited data

How the results depend on the processing

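Slc4a1 in type A-like cells stayed below 0 under every alternative that gave a value. Its log2 ratio was -1.15 without doublet removal, -0.99 at a minimum of 1000 UMIs, -0.56 at each library's own UMI minimum, -1.04 at a mitochondrial limit of 25%, -0.87 with finer subclusters weighted equally, -0.36 with those of 20 or more cells per library weighted equally and -1.92 without the 5 highest cells (the last 3 chosen after the data were seen). Slc26a4 there was 1.505 as reported and changed sign without doublet removal (-0.46), at 1000 UMIs (-0.97), at own minimums (-1.76) and at the 25% limit (-0.046). In the first 3 of these settings no type B-like subcluster was named, so that the type A share did not differ (0). The difference in that share, 14.1 percentage points as reported, was 38.1 with each library clustered on its own, 3.29 with each cell named alone and -8.66 with cells named alone by the exchangers. The difference in the share of intercalated-like cells, -0.84 points as reported, was -1.26 with own clustering and 0.081 with each cell named alone. The members' UMIs in intercalated-like cells, 16.8% as reported, were 14.2% without doublet removal, 5.77% at 1000 UMIs, 4.42% at own minimums, 16.6% at the 25% limit, 15.7% with members kept among the clustering genes, 15.3% with own clustering, 41.0% with each cell named alone and 14.8% at resolution 1 within the cluster. The members' median was 0.071 at own minimums and -0.60 with each cell named alone. Of the 10 members, 1 met the size rule without doublet removal, at resolution 2, with own clustering, with each cell named alone and at resolution 1 within the cluster; 0 met it at 1000 UMIs, own minimums, the 25% limit and with members kept. In principal-like cells Car2 ranged from -1.31 to -0.83 and Rhcg from -1.08 to -0.70. The causes were not tested. No paired analysis was possible because each group is 1 library. The small number of cells, 16 in the haplodeficient library, limits the type B-like values.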
